A study of Mus musculus with 6 samples.

Results

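The genes described here belong to vitamin A storage and retinoid metabolism in the liver. They are 9 of the 40481 genes in the deposited table of all pools, taken by their symbols: Lrat, Bco1, Aldh1a2, Rbp4, Adh1, Aldh1a1, Cyp26a1, Dhrs3 and Rarb. Each is a single protein-coding gene there, and all 9 had counts high enough to be tested. Retinoid genes taken as stellate (Lrat, the storage enzyme, with Bco1 and Aldh1a2) were set beside those taken as hepatocyte genes (Rbp4, Adh1, Aldh1a1 and Cyp26a1). Dhrs3 and Rarb were put with neither cell type. This grouping came from knowledge of the liver, but the 9 genes and their grouping were chosen with earlier results of these data known.

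Liver RNA was sequenced from 3 pools of control mice and 3 pools of Mttp-IKO mice. The mice were male C57BL/6 animals of 12 to 16 weeks, and every mouse of both groups carried floxed Mttp alleles (Mttp f/f) and a Villin Cre ER T2 transgene. Mttp-IKO mice had received tamoxifen (TAM) at 50 µg/g body weight per day for 5 days, whereas control littermates, called wild type in the labels, had received vehicle. TAM activates the Cre recombinase, which the Villin promoter drives in the intestinal epithelium, so Mttp, the triglyceride transfer protein needed to build chylomicrons, is lost from the gut and not from the liver. Both groups then ate a methionine- and choline-deficient (MCD) diet for 3 weeks, starting 3 weeks after injection, and livers were taken after a fast of 4 h in the labels and of up to 6 h in the study's methods. Each pool mixed RNA of several mice, 3 to 4 by the study's methods, whereas the series text counts 12 livers without saying whether for both groups together. Pools vary less than single mice would. TAM itself was given to Mttp-IKO mice alone and cannot be told apart from the loss of Mttp.

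Dietary vitamin A leaves the gut mainly as retinyl ester inside chylomicrons, and the liver takes it up with their remnants. Hepatocytes hydrolyze the ester and release retinol into plasma bound to Rbp4, or pass it to stellate cells, where Lrat turns it back into ester for storage in lipid droplets. Retinol is oxidized to retinal and then to retinoic acid, the ligand of nuclear receptors such as Rarb, and Cyp26a1 and Dhrs3 limit the supply of that ligand. Activated stellate cells are known to lose their retinoid droplets and to make collagen.

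Of the 9 genes, 3 were lower in Mttp-IKO livers at an adjusted p under 0.05 and none was higher. The 3 were Lrat, Aldh1a1 and Dhrs3, a storage enzyme of stellate cells, an oxidizing enzyme of hepatocytes and a reductase of retinal. Across all 17287 genes tested by edgeR's quasi-likelihood test with Benjamini-Hochberg adjustment, 4.01% passed this threshold, 3.09% lower and 0.92% higher. The pools of the groups did not overlap for 6 of the 9 genes, against 31.0% of all tested genes, of which 16.5% were lower and 14.5% higher in every Mttp-IKO pool. The median log2 fold change was -0.34 over the 9 genes and 0.01 over all tested genes. As the 9 genes were chosen with earlier results of these data known, these shares describe them and test nothing. Levels are given in CPM, the read count relative to the pool's total, after scaling by the trimmed mean of M-values (TMM), and errors are SD over 3 pools.

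The 3 calls were each lost without any 1 of 4 pools. Lrat had an adjusted p of 0.0717 without control pool 1, 0.0752 without control pool 3, 0.0613 without Mttp-IKO pool 1 and 0.0998 without Mttp-IKO pool 2 in edgeR's test. Aldh1a1 had 0.0630, 0.0811, 0.0613 and 0.0998 in the same order, and Dhrs3 had 0.0955, 0.110, 0.0750 and 0.123. The log2 fold changes stayed negative in all these fits, between -1.78 and -1.55 for Lrat, -1.37 and -1.27 for Aldh1a1, and -0.94 and -0.83 for Dhrs3. All 3 genes were still called in the fits without control pool 2 and without Mttp-IKO pool 3.

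Control pools 1 and 2 and Mttp-IKO pool 3 stood apart in RNA that does not come from this pathway. Summed striated muscle markers reached 766 CPM in control pool 2 and 98.5 CPM in control pool 1, against at most 1.22 CPM elsewhere, and adipocyte markers reached 20.7 CPM in control pool 2 against at most 1.47 CPM. In Mttp-IKO pool 3, small RNAs took 0.634% of the reads against 3.60% to 5.27% in the others, coding mRNAs of 300 to 1000 nt took 1.84% of the coding reads against 3.98% to 4.28%, and those of 1000 to 2000 nt took 15.9% against 19.5% to 20.6%. The pools held 25271585 to 36238734 reads on genes. Hepatic Mttp was 90.4, 186 and 175 CPM in control pools, against 145, 129 and 161 CPM in Mttp-IKO pools. As the deletion is in the gut, this level checks no label.

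**Figure D1:**
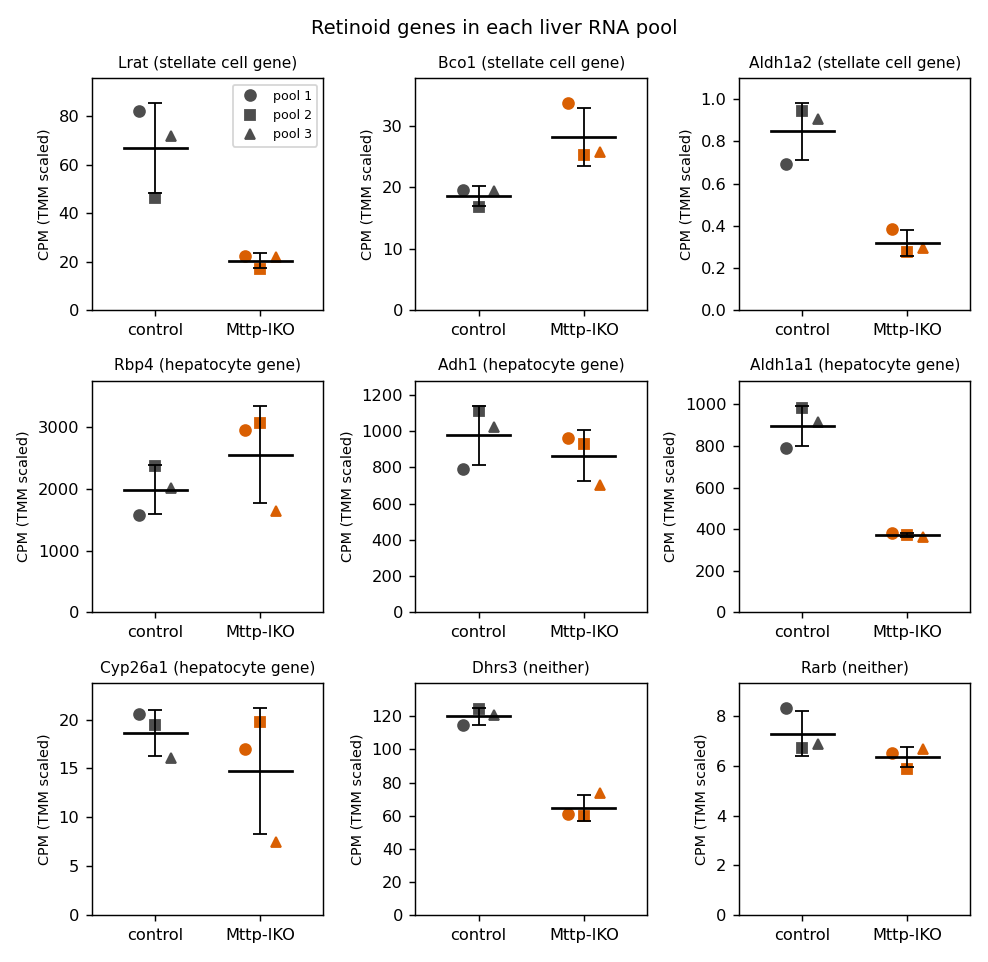
Each panel plots one retinoid gene in CPM scaled by TMM on a linear axis from 0, with control pools in grey and Mttp-IKO pools in orange. Symbols give the pool number, which pairs nothing, long bars the mean and whiskers the SD over 3 pools. Lrat, Aldh1a2, Aldh1a1 and Dhrs3 sat lower in every Mttp-IKO pool by a wide margin, Bco1 sat higher, the pools of Rarb nearly touched, and Rbp4, Adh1 and Cyp26a1 overlapped.

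Lrat, lecithin retinol acyltransferase, makes the retinyl ester that stellate cells store. The gene (ENSMUSG00000028003, chr3:82892579-82903973, minus strand, GRCm38) gave 82.2, 46.1 and 72.1 CPM in control pools 1 to 3 and 22.4, 17.0 and 21.9 CPM in Mttp-IKO pools 1 to 3. The lowest control pool, pool 2, was still above the highest Mttp-IKO pool, and the Mttp-IKO pools lay close together. The mean fell from 66.8 ± 18.6 to 20.4 ± 3.00 CPM, 3.27-fold (log2 fold change -1.71, SE 0.239, 95% interval -2.26 to -1.16, edgeR adjusted p 0.0181). Without control pool 2 the log2 fold change was -1.94. In whole liver, fewer stellate cells and less of a transcript per cell cannot be told apart.

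Aldh1a2 oxidizes retinal to retinoic acid, in liver mainly in cells other than hepatocytes. The gene (ENSMUSG00000013584, chr9:71215789-71296243, plus strand) had the fewest reads of the 9, with 28, 34 and 29 counts in control pools and 12, 8 and 7 in Mttp-IKO pools. These counts correspond to 0.694, 0.943 and 0.906 CPM and to 0.387, 0.274 and 0.294 CPM, and a single pool's count of 3 corresponds to 0.0828 to 0.119 CPM. The groups did not overlap, and every Mttp-IKO pool was well below the lowest control pool. The log2 fold change was -1.39 (SE 0.385, 95% interval -2.28 to -0.51), with an edgeR adjusted p of 0.0857, so it did not pass the threshold.

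Bco1, the oxygenase that splits beta-carotene into retinal, went the other way. The gene (ENSMUSG00000031845, chr8:117095854-117133720, plus strand) gave 19.5, 16.8 and 19.4 CPM in control pools, against 33.7, 25.3 and 25.8 CPM in Mttp-IKO pools. Every Mttp-IKO pool was above every control pool, with means of 18.6 ± 1.56 and 28.3 ± 4.74 CPM. The log2 fold change of 0.60 (SE 0.170, 95% interval 0.21 to 0.997) had an edgeR adjusted p of 0.0898. It passed the threshold with DESeq2 (0.62, adjusted p 0.0364) and after removal of each pool's trend with gene length (0.73, edgeR adjusted p 0.0428). In the other 14 of 16 alternatives it did not pass. Among these were total count scaling (0.43, edgeR adjusted p 0.230) and the fit without control pool 3 (0.61, edgeR adjusted p 0.292).

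The genes taken as stellate did not move as a block: Lrat was called lower, Aldh1a2 was lower without passing the test, and Bco1 was higher without passing it. Which cells the reads of Bco1 came from was not tested. Markers of stellate cells were read beside these genes, with all 9 members left out of the lists. The names quiescent and activated are those of the lists, and no cell state was measured. Whether each gene marks the state its list is named for, such as Pdgfrb, Ngfr or Pdgfra, was not tested. Of 20 quiescent stellate markers, all tested, 7 were called lower and none higher, with a median log2 fold change of -0.59. The called genes were Ngfr (11.0 ± 2.67 to 1.61 ± 0.177 CPM, log2 fold change -2.78), Colec11 (41.6 ± 8.97 to 13.2 ± 2.06 CPM, -1.65), Adamtsl2 (-1.54), Tcf21 (-1.27), Pth1r (-1.26), Pdgfrb (-1.20) and Cygb (-1.16). Of the other 13, Reln, a secreted glycoprotein that quiescent stellate cells make, had a log2 fold change of -0.44 (edgeR adjusted p 0.235) and Ecm1 of 0.04 (0.911). The summed level of all 20 markers was 875 to 993 CPM in control pools, against 590 to 763 CPM in Mttp-IKO pools, without overlap. None of the 20 was at 0 in all pools.

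Of 12 genes on the activated list, all tested, 10 were called lower, with a median log2 fold change of -2.11. The summed level of all 12 was 515 to 1309 CPM in control and 135 to 161 CPM in Mttp-IKO pools. Fibrillar collagens led the list, Col3a1 at 276 ± 140 and 18.1 ± 2.62 CPM (log2 fold change -3.93) and Col1a1 at 229 ± 122 and 17.3 ± 4.36 CPM (-3.72). Timp1 (log2 fold change -1.83, edgeR adjusted p 0.0805) and Pdgfra (-0.24, 0.368) did not pass. Without Mttp-IKO pool 2, none of the 12 activated and none of the 20 quiescent markers was called by edgeR, although 11 and 13 had an unadjusted p under 0.05. Without control pool 1, control pool 3 or Mttp-IKO pool 1 it called 3, 1 and 2 of the activated and 1, 1 and 1 of the quiescent markers. Portal fibroblast markers were lower too, at 28.3 to 45.4 CPM in control and 10.1 to 18.9 CPM in Mttp-IKO pools with 2 of 5 called lower (Mfap4 and Fbln2), whereas mesothelial markers overlapped at 23.4 to 34.7 and 11.8 to 29.8 CPM with none of 7 called. The part of these markers in the difference of Lrat was not tested.

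Per read of the quiescent markers, Lrat was also lower. For every 1000 CPM of the 20 markers, control pools had 82.8, 52.7 and 74.0 CPM of Lrat and Mttp-IKO pools 37.9, 25.0 and 28.8 CPM. The lowest control pool was above the highest Mttp-IKO pool, and the means of the log2 ratio differed by -1.19. Set against the activated markers, the order turned: 62.8, 89.6 and 76.2 CPM of Lrat per 1000 CPM in control pools, against 139, 111 and 162 CPM in Mttp-IKO pools, which differ by 0.85 in mean log2 ratio. Relative to the quiescent sum Lrat was thus lower in every Mttp-IKO pool, and relative to the activated sum it was higher in every one. The choice of marker list sets which way this ratio points. Reln and Ecm1, which were not called, made up 49.7% to 52.0% of the quiescent sum in control and 60.2% to 61.4% in Mttp-IKO pools. Against the other 18 markers, a sum chosen after these values were seen, the log2 ratio of Lrat differed by -0.85, without overlap. Des alone made up 68.1 of the 434 CPM of these 18 markers in control pool 2. The log2 fold changes of the 7 single markers called ran from -2.78 for Ngfr to -1.16 for Cygb, beside -1.71 for Lrat. Of all 20 markers, 17 were lower and 3 higher, with a median of -0.59.

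**Figure D2:**
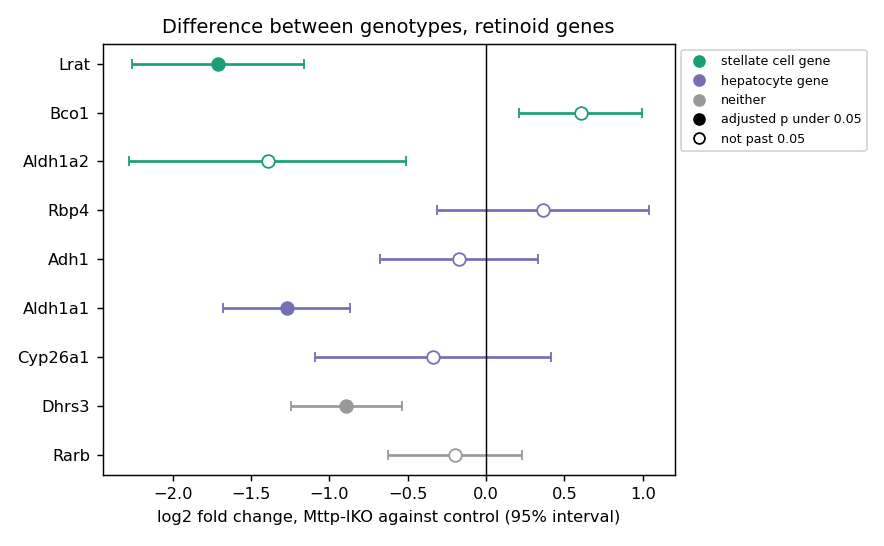
The log2 fold change of Mttp-IKO against control livers is plotted for each of the 9 genes, with bars for the 95% interval of the edgeR fit. Green marks stellate genes, violet hepatocyte genes and grey genes put with neither, and filled points have an adjusted p under 0.05. Lrat, Aldh1a1 and Dhrs3 lie filled to the left of 0, and Bco1 and Rbp4 lie to the right as open points.

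Among the hepatocyte genes, Rbp4, the plasma carrier of retinol, was the most abundant. The gene (ENSMUSG00000024990, chr19:38116620-38125321, minus strand) gave 1587, 2371 and 2012 CPM in control pools, against 2963, 3068 and 1648 CPM in Mttp-IKO pools. Mttp-IKO pools 1 and 2 were above every control pool, and Mttp-IKO pool 3 was within the control range. The log2 fold change of 0.36 (SE 0.293, 95% interval -0.31 to 1.04) did not pass the test (edgeR adjusted p 0.495), and it was 0.60 without Mttp-IKO pool 3 (0.112). The gene model of Rbp4 has 1297 nt, within the length class of which Mttp-IKO pool 3 had a low share. The part of that share in the value of this pool was not tested.

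Adh1, an alcohol dehydrogenase that oxidizes retinol as well as ethanol, overlapped between the groups. The gene (ENSMUSG00000074207, chr3:138260991-138290698, plus strand) gave 792, 1109 and 1024 CPM in control pools, against 961, 930 and 701 CPM in Mttp-IKO pools. Adh1 had a log2 fold change of -0.17 (SE 0.219, 95% interval -0.68 to 0.33, edgeR adjusted p 0.670). The interval leaves room for a fall to 0.625 or a rise to 1.26 times the control level.

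Aldh1a1, the retinal dehydrogenase of hepatocytes, was lower in every Mttp-IKO pool. The gene (ENSMUSG00000053279, chr19:20601961-20643462, plus strand) gave 791, 983 and 915 CPM in control pools, against 382, 370.4 and 362 CPM in Mttp-IKO pools. The 3 Mttp-IKO pools differed by a factor of 1.05 from lowest to highest, and each was far below the lowest control pool. The mean fell from 896 ± 97.1 to 372 ± 9.76 CPM, 2.41-fold (log2 fold change -1.27, SE 0.176, 95% interval -1.68 to -0.87, edgeR adjusted p 0.0181). Reads from any stretch identical in Aldh1a1 and its close paralog Aldh1a7 would be lost to both, since a read was counted only where it aligned uniquely. Aldh1a7 was 176 ± 15.9 CPM in control and 126 ± 8.85 CPM in Mttp-IKO pools, with a log2 fold change of -0.48 (edgeR adjusted p 0.122).

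Cyp26a1, the hydroxylase that clears retinoic acid and is induced by it, did not differ beyond its spread. The gene (ENSMUSG00000024987, chr19:37697808-37701528, plus strand) gave 20.5, 19.5 and 16.02 CPM in control pools, against 17.0, 19.7 and 7.47 CPM in Mttp-IKO pools. Mttp-IKO pools 1 and 2 lay within the control range, and pool 3 lay below it. The gene model of Cyp26a1 has 1773 nt, within the length class of which Mttp-IKO pool 3 had a low share. The part of that share in this value was not tested. Cyp26a1 had a log2 fold change of -0.34 (SE 0.327, 95% interval -1.09 to 0.41, edgeR adjusted p 0.572), and without Mttp-IKO pool 3 it was -0.022.

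The hepatocyte markers gave a different background from the stellate markers. None of 12 was called, all 12 had a positive log2 fold change with a median of 0.66, and their sum was 69612 to 106629 CPM in control and 138429 to 186219 CPM in Mttp-IKO pools. Alb, albumin, makes up much of that sum at 54150 ± 14455 and 104754 ± 24602 CPM. Aldh1a1 fell while this list stood higher, and the part of the list in any member's value was not tested. Endothelial markers (645 to 679 and 534 to 624 CPM, none of 8 called), Kupffer markers (320 to 490 and 244 to 583 CPM, 1 of 6 called higher) and cholangiocyte markers (69.6 to 196 and 49.8 to 94.7 CPM, none of 6 called) are the other cell types of the tissue. Small intestine markers summed to 1269 to 2433 and 803 to 2911 CPM, nearly all of it Apoa4 (1737 CPM as the control mean), an apolipoprotein that liver also makes. Of these 6 markers 3 were tested and none called, and Cdx2, Lct and Rbp2 had means of at most 0.283 CPM in either group, and of 5 pancreas markers 1 was tested and not called (5.65 to 6.40 and 2.85 to 5.87 CPM).

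Dhrs3, a reductase that turns retinal back into retinol and is known to be induced by retinoic acid, was lower in every Mttp-IKO pool. The gene (ENSMUSG00000066026, chr4:144892827-144928209, plus strand) gave 114, 124 and 121 CPM in control pools, against 60.7, 59.5 and 73.7 CPM in Mttp-IKO pools. The control pools spanned a factor of 1.09, the narrowest of the 9 genes among controls, and the groups were far apart. The mean fell from 119.9 ± 5.02 to 64.7 ± 7.88 CPM, 1.85-fold (log2 fold change -0.89, SE 0.154, 95% interval -1.24 to -0.54, edgeR adjusted p 0.0285).

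Rarb, a retinoic acid receptor whose own gene is a known target of the ligand, differed little. The gene (ENSMUSG00000017491, chr14:16430842-16575472, minus strand) gave 8.33, 6.71 and 6.87 CPM in control pools, against 6.54, 5.90 and 6.67 CPM in Mttp-IKO pools. The lowest control and the highest Mttp-IKO pool were almost equal. Rarb had a log2 fold change of -0.20 (SE 0.185, 95% interval -0.62 to 0.23, edgeR adjusted p 0.559). Exons of Top2b on the opposite strand cover 1793 bases of Rarb's exons in the GENCODE M21 annotation, and 136 bases of Adh1's are covered by Gm16559. No source used here says if strand was used in counting, and without it reads of such overlaps cannot be told apart.

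A hexamer of the retinoic acid receptor type lay in 5 of the 9 promoters, each read from 250 bases before to 50 bases after the gene's start in RefSeq (GRCm38.p6). For Adh1 the nearest RefSeq start lies 16594 bases from the gene's start in the files, so its window, which held no hexamer, may not be the promoter of the counted gene model. Stretches of 120 bases that end at the start are shown for the 3 genes that passed the test (Lrat, Aldh1a1 and Dhrs3) and for the genes of the feedback on retinoic acid (Cyp26a1, Rarb and again Dhrs3). Bco1 is added for its match, and that choice was made after the matches were seen. Each sequence reads 5′ to 3′ on the gene's own strand. Capitals mark the hexamer AGGTCA, its form GGGTCA, the form AGTTCA or the form GGTTCA, each on either strand, so that those that begin with TGA lie on the opposite strand.
Lrat: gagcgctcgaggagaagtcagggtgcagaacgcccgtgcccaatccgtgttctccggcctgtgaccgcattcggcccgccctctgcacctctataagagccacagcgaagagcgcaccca
Aldh1a1: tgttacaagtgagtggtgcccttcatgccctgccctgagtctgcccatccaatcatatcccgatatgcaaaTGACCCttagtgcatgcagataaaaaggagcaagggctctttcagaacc
Dhrs3: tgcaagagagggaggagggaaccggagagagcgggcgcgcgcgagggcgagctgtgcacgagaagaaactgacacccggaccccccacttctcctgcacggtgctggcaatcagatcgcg
Cyp26a1: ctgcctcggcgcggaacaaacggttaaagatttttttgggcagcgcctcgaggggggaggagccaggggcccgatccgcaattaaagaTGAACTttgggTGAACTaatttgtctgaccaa
Rarb: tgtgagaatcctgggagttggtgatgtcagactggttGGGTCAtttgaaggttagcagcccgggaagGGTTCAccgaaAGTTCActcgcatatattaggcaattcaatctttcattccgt
Bco1: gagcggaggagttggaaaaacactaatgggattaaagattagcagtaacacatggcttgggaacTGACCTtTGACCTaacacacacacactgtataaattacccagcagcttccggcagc
The stretch of Lrat is chr3:82903975-82904094 on the minus strand. That of Aldh1a1 is chr19:20601848-20601967 on the plus strand, that of Dhrs3 is chr4:144892707-144892826 on the plus strand, and that of Cyp26a1 is chr19:37697688-37697807 on the plus strand. Rarb's is chr14:16575477-16575596 on the minus strand and Bco1's is chr8:117095745-117095864 on the plus strand.

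Cyp26a1 and Rarb each held a direct repeat of the hexamer with 5 bases between (DR5), the classic response element of retinoic acid receptors. In Rarb the repeat lay on the gene's strand and began 53 bases before the start, and in Cyp26a1 it lay on the other strand and covered the bases from 32 before the start onward. Bco1 held a repeat with 1 base between (DR1) on the other strand, from 56 bases before the start, and no member held a repeat with 2 bases between (DR2). Among 32851 promoters of this length, 0.0974% held a DR5, 0.222% a DR1, 0.268% a DR2 and 43.7% at least 1 hexamer. The windows of Lrat and Dhrs3 held none of these letters, and that of Aldh1a1 held a single hexamer. A match describes the letters and not a bound site.

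The feedback genes with a DR5 in the window shown above, Cyp26a1 and Rarb, were not called, while Dhrs3, with no such letters there, was. A wider list of retinoic acid responsive genes had 8 of 12 members tested and none called, with a median log2 fold change of -0.15. Tgm2, transglutaminase 2, came nearest at 200.05 ± 46.4 and 95.8 ± 23.9 CPM (log2 fold change -1.06, edgeR adjusted p 0.0574), without overlap. Cyp26b1, a further retinoic acid hydroxylase, was 51.2, 51.1 and 53.0 CPM in control pools, against 24.0, 28.0 and 81.6 CPM in Mttp-IKO pools. Mttp-IKO pools 1 and 2 were below every control pool and pool 3 was above, so its log2 fold change of -0.22 (edgeR adjusted p 0.797) averages pools that disagree. Rarres1, Nrip1 and Hoxa5 overlapped, with log2 fold changes of -0.02, 0.28 and -0.25.

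Ratios within a pool do not depend on library scaling. The log2 ratio of Lrat to Rbp4, the contrast of stellate storage with hepatocyte export, was -4.27, -5.68 and -4.80 in control pools and -7.05, -7.50 and -6.23 in Mttp-IKO pools. The groups did not overlap, and the means differed by -2.01, a 4.02-fold lower ratio in Mttp-IKO livers. The two-sided exact permutation p was 0.1, the smallest that 3 pools against 3 can give. Without Mttp-IKO pool 3 the difference was -2.35 and without control pool 2 it was -2.39. Per kilobase of gene length, Lrat stood at 12.6, 4.71 and 8.68 per 1000 of Rbp4 in control and 1.83, 1.34 and 3.23 in Mttp-IKO pools.

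Within the cell types the ratios also separated the groups. Lrat to Bco1, both counted as stellate genes, had log2 ratios of 2.07, 1.46 and 1.89 in control and -0.59, -0.57 and -0.23 in Mttp-IKO pools, so Lrat went from above to below Bco1 in CPM. Aldh1a1 to Adh1, the enzymes of the second and the first oxidation step in hepatocytes, had log2 ratios of -0.0018, -0.17 and -0.16 in control and -1.33, -1.33 and -0.95 in Mttp-IKO pools. Both enzymes had like CPM in control pools, and Aldh1a1 was below Adh1 in every Mttp-IKO pool. Aldh1a1 to Rbp4 differed by -1.59 between the means of the log2 ratio, without overlap.

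**Figure D3:**
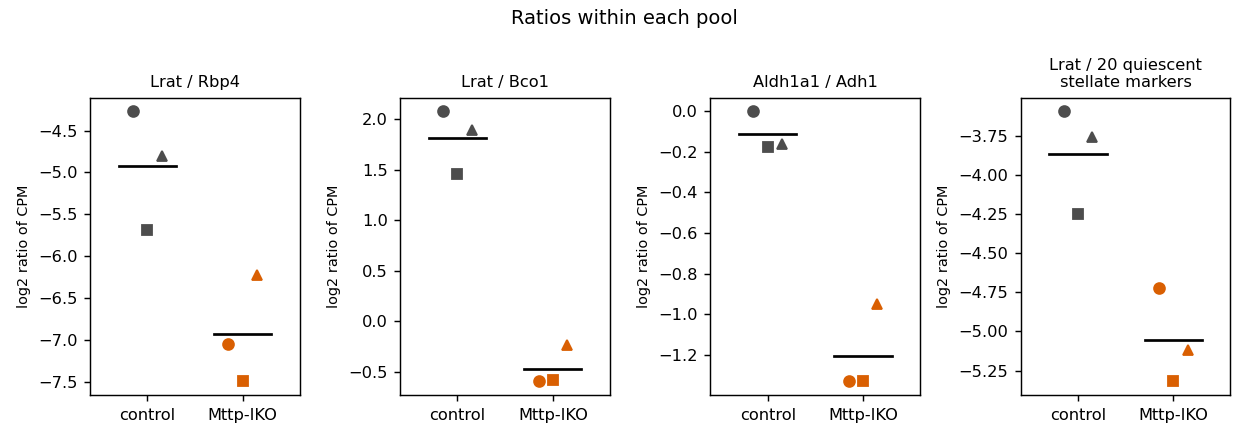
Log2 ratios of CPM within each pool are plotted for Lrat to Rbp4, Lrat to Bco1, Aldh1a1 to Adh1 and Lrat to the sum of 20 quiescent stellate markers, with a line at each group's mean. Control pools are grey, Mttp-IKO pools orange, and symbols give pool numbers 1 (circle), 2 (square) and 3 (triangle). In all 4 panels every Mttp-IKO pool lies below every control pool.

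Compared per kilobase of gene length, the order of the genes shifted in the middle. In control livers Rbp4 led at 1534.5 ± 303 CPM per kb, followed by Adh1 (437 ± 73.5) and Aldh1a1 (437 ± 47.3), whose pools overlapped. Dhrs3 (41.0 ± 1.71) came next, then Lrat (12.5 ± 3.48) and Cyp26a1 (10.5 ± 1.33), which overlapped, then Bco1 (7.31 ± 0.615), Rarb (2.41 ± 0.294) and Aldh1a2 (0.374 ± 0.0592). In Mttp-IKO livers Lrat (3.82 ± 0.560 CPM per kb) stood below Bco1 (11.1 ± 1.87) and Cyp26a1 (8.31 ± 3.63), which overlapped each other, and Aldh1a1 (181 ± 4.75) stood clearly below Adh1 (387 ± 63.6). Rbp4 was at 1974 ± 610, Dhrs3 at 22.1 ± 2.69, Rarb at 2.10 ± 0.136 and Aldh1a2 at 0.141 ± 0.0266 CPM per kb.

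The rest of the pathway mostly did not pass the test. Of 48 further genes of retinoid binding, transport, hydrolysis, oxidation and reception, 40 were tested, 1 was called higher and 2 lower, with a median log2 fold change of -0.09. Rdh11, a microsomal reductase of retinal, rose from 16.9, 34.4 and 25.5 CPM to 57.1, 68.2 and 65.2 CPM (log2 fold change 1.31, SE 0.251, edgeR adjusted p 0.0346). Every Mttp-IKO pool was above the highest control pool. Cd36, a fatty acid translocase also linked to carotenoid uptake, fell from 299, 168 and 297 CPM to 92.2, 121 and 95.3 CPM (log2 fold change -1.31, SE 0.255, edgeR adjusted p 0.0358).

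Fabp5, a binding protein for fatty acids and retinoic acid, fell from 37.8, 20.2 and 38.2 CPM to 13.4, 12.2 and 6.46 CPM (log2 fold change -1.58, SE 0.336, edgeR adjusted p 0.0448). For Cd36 and Fabp5 control pool 2 was the lowest control pool, as it was for Lrat. Among the most abundant genes of this list, Ttr, the plasma partner of Rbp4, was 3296 ± 511 and 2252 ± 687 CPM, without overlap. Its gene model has 1219 nt, and Mttp-IKO pool 3, with its low share of such lengths, was lowest at 1466 CPM. Ttr had a log2 fold change of -0.55 (edgeR adjusted p 0.290). Rxra, the partner receptor of the retinoic acid receptors, had 0.36 (0.349), and Rdh7, a retinol dehydrogenase, had -0.25 (0.527). Without Mttp-IKO pool 3, 9 of the 40 were called, and none was called without control pool 1, control pool 3, Mttp-IKO pool 1 or Mttp-IKO pool 2, where 8 to 12 had an unadjusted p under 0.05.

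**Figure D4:**
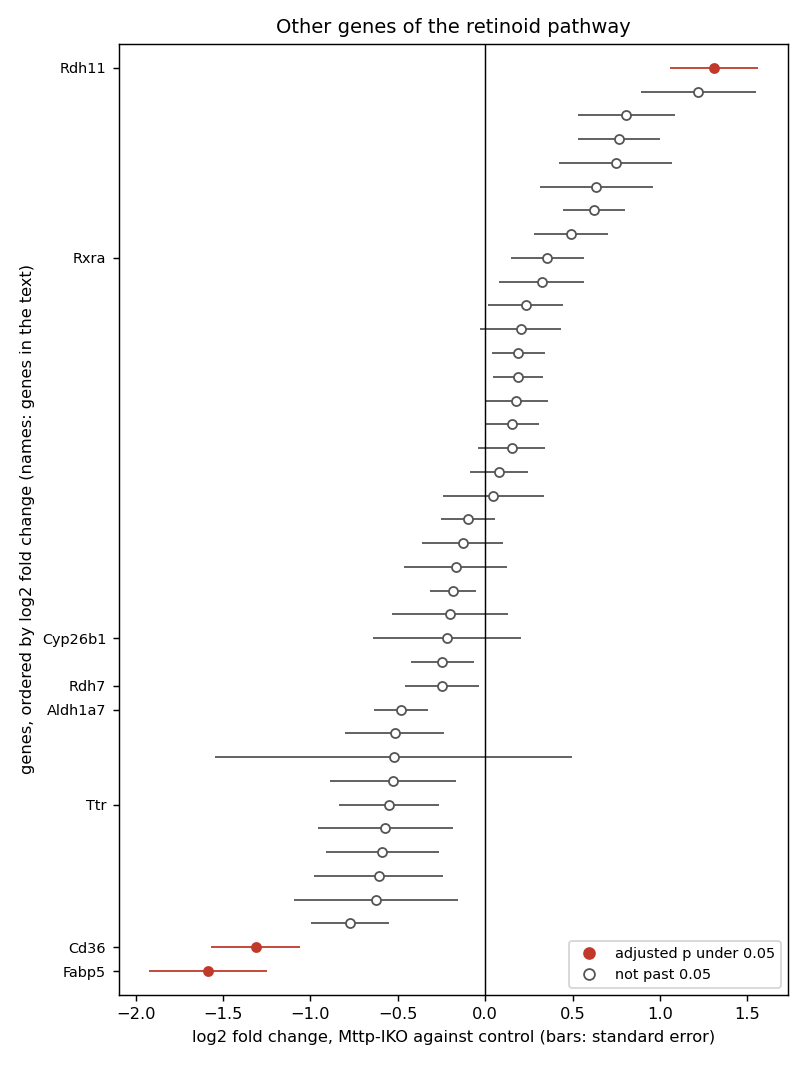
Log2 fold changes of Mttp-IKO against control livers are plotted for tested genes of the wider retinoid pathway, ordered by size, with bars for 1 standard error and names beside the genes described in the text. Red points have an adjusted p under 0.05, and open points do not. Rdh11 is the red point at the upper end at 1.31, Cd36 and Fabp5 are those at the lower end at -1.31 and -1.58, and the others are open.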

How the data were processed

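Liver RNA pools were depleted of ribosomal RNA (KAPA RiboErase) and sequenced on an Illumina HiSeq. The authors aligned reads with STAR 2.5.1a to the Ensembl primary assembly (GRCm38) and deposited, for 41388 genes, the count of uniquely aligned unambiguous reads from featureCounts 1.4.6-p5. The authors also deposited CPM (counts scaled to library total) and RPKM (the same per kilobase of gene), which follow from the counts, so only counts were tested. A table of all pools repeats the counts for 40481 genes with symbols, and 276 repeated lines were dropped.

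Groups and pool numbers came from the sample titles. Genes were kept by filterByExpr (minimum count 10, minimum total count 15), scaled by TMM (factors 0.898 to 1.11) and compared with glmQLFit and glmQLFTest of edgeR 4.0.16 in R 4.3.3, with Benjamini-Hochberg adjustment over 17287 genes and a threshold of 0.05. The study names no test for these counts. Log2 fold changes are Mttp-IKO against control, and no pair of pools agreed within sampling noise. A count of 3 in a pool, the limit that a count of 0 allows, equals 0.0828 to 0.119 CPM, which covers counting error alone. P-values measure the spread between pools. On simulated counts with 200 changed genes among 16929, edgeR recovered 168 and called 8 unchanged genes. Every planted change was larger than that of any member but Lrat, and genes as scarce as Aldh1a2 were given none. The share recovered thus does not describe the power for the members that were not called.

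The 9 members and all gene lists were chosen with earlier results of these data known. Named genes are the members and, of each list, up to 6 genes, those called by size of change and then the most abundant. Aldh1a7, Cygb, Reln, Ecm1, Des, Timp1, Pdgfra, Alb, Apoa4 and the near-absent intestinal markers are named besides, after their values were seen. Alternatives were DESeq2 1.42.0, limma-voom (limma 3.58.1), DESeq2's size factors, upper quartile and total count scaling, no low-count filter, at least 1 CPM in 3 pools, protein-coding genes alone, removal of each pool's loess trend with gene length (span 0.3), a replicate block, an adjusted p under 0.1 and leaving out each pool. Promoters came from RefSeq (GRCm38.p6), where all 9 members matched, taking the start nearest to the gene's start in the files. A few genes of the lists are not reported here.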

Additional observations from a re-analysis of the deposited data

How the results depend on the processing

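None of the 9 genes and not the Lrat to Rbp4 ratio changed sign under the alternatives run. Other genes were rerun as counts of calls, without their directions. Over the 9 genes and their alternatives, 129 of 143 values kept their side of the threshold, 12 lost the call (Lrat, Aldh1a1 and Dhrs3 in the 4 fits without control pool 1 or 3 or Mttp-IKO pool 1 or 2) and 2 gained it (Bco1). The number of the 9 called was 3, with 0 to 3 when a pool was left out and 5 at an adjusted p under 0.1, and 5 of 9 had an unadjusted p under 0.05 in each fit that called 0. All genes called numbered 694, against 1995 with DESeq2, 428 with limma-voom, 1658 at an adjusted p under 0.1 and 0 to 892 without single pools (0 without Mttp-IKO pool 2 in edgeR, with 3221 at an unadjusted p under 0.05, 24 without control pool 1, 21 without control pool 3 and 55 without Mttp-IKO pool 1). Other pathway genes called numbered 3, against 5 with total count scaling, 8 with DESeq2, 6 at an adjusted p under 0.1 and 0 to 9 without single pools. Quiescent stellate markers called ranged from 0 to 8 and activated ones from 0 to 11 without single pools. The Lrat to Rbp4 difference ranged from -2.39 to -1.68. The causes were not tested.

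Lower genes made up 77.1% of calls, 89.0% with total count scaling and 59.0% after removal of the length trend, which moved the median of all genes by -0.18 and 0.11 on the log2 scale. Relative to that median Bco1 stood at 0.60 and 0.62. Aldh1a2 could not be tested at the minimum of 1 CPM. With the replicate number as a block, 3 of the 9 genes were called, as without it, and 1 other pathway gene in place of 3. Same-numbered pools had correlated deviations of 0.139, 0.112 and 0.0070, so the numbers do not establish a pairing, though each pool but Mttp-IKO pool 3 correlated best with its own number. Depth limits Aldh1a2 most, at 7 to 34 reads per pool.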

Other observations

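Some genes of chylomicron remnant uptake, the route by which dietary retinyl ester enters the liver, were read beside the retinoid genes. Hspg2, the heparan sulfate proteoglycan perlecan, fell from 328, 259 and 287 CPM to 155, 175 and 177 CPM (log2 fold change -0.78, edgeR adjusted p 0.0456). Sdc1, a syndecan that binds remnants, was 233 ± 20.1 and 168 ± 36.5 CPM (log2 fold change -0.47, edgeR adjusted p 0.205), without overlap. Lrp1 and Apoe had log2 fold changes of -0.15 and -0.24 (edgeR adjusted p 0.675 and 0.702), with Apoe at 8049 CPM in Mttp-IKO pool 3 against 15702 to 18175 CPM in the others.

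The genes whose log2 CPM followed Lrat most closely over the 6 pools, among 11645 protein-coding genes, were Col1a1 (Pearson r 0.999), Gabra3 (0.999) and Ncapg2 (0.997). With 6 pools of which 3 are low, 395 genes reached an r of 0.95, so this likeness is a description shared by many genes. Rbp4 was followed by Tmem9 (0.996), Dnajc30 (0.995) and Rchy1 (0.994), with 83 genes at 0.95 or above. Cyp26a1 was followed by Ergic3 (0.993), Copz2 (0.992) and Thap3 (0.987), with 173 genes at 0.95 or above. The points share library, depth and, for Mttp-IKO pool 3, the low share of short mRNAs.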
